A study of Homo sapiens with 8 samples.

Results

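The antisense transcripts described here are 284 RNAs, each named by the platform's annotation with the symbol of a neighbouring gene followed by -AS and a digit. They were chosen by their signal. A gene with such a symbol, read by its brightest probe set, was kept when that signal lay above the median of its own array on at least 2 of the 8 arrays. This kept 284 of 781 candidates, in a table of 19775 genes, of which 14056 passed the same filter and were tested. The gene named before -AS, called the sense gene, was set beside each as a reference. Of the 284, 256 had a sense gene with a probe set of its own, and that gene was bright enough to be tested for 236.

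Antisense transcripts are RNAs made from the strand opposite to another gene, and most of those named in this way code for no protein. Some start close to the start of the sense gene and run away from it, so that both use the same stretch of open promoter DNA. Others begin inside the sense gene or run into its end, where the RNAs can pair or the polymerases can meet. Several are known to change together with the developmental regulators beside which they lie, and a smaller number are known to raise or silence their neighbour.

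The study compared a pair of established human embryonic stem cell lines, H1 and H9, and measured total RNA on Affymetrix Human Genome U133 Plus 2.0 arrays. Undifferentiated H1 and undifferentiated H9 were cultured in mTeSR1, a defined medium that keeps the cells pluripotent. H1 embryoid bodies and H9 embryoid bodies (EB), floating aggregates in which differentiation begins, were formed for 3 days on ultra low attachment plates from Accutase-dissociated cells. The EB medium lacked bFGF and contained the compound Y-27632 at 10 µM. Each of the 4 groups has 2 arrays, called biological replicates in the labels, and no genetic change is named for any group. Medium, attachment and compound therefore change together with the state, so their effects cannot be told apart from it. Whether the replicates were separate cultures is not said, and a p-value here therefore reflects only how far these samples spread.

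CRYZ and TYW3, which separate the undifferentiated lines, read higher on the arrays labelled H9 EB than in undifferentiated H9. CRYZ, a quinone oxidoreductase gene, had a mean signal of 3839 in undifferentiated H1, 4334 in H1 EB and 40.1 in undifferentiated H9, but 1395 on the arrays labelled H9 EB, and TYW3 behaved in the same way (1319, 1144, 27.6 and 309). This rests on 2 genes, and its cause was not tested. The part of the arrays labelled H9 EB in the results below was not tested either. Counts of called members and of pairs by direction are also given without these arrays, for contrasts that can be fitted without them. Markers differed between the states. The summed signal of 8 pluripotency genes was 117940 to 128922 on undifferentiated arrays and 81218 to 94511 on EB arrays. That of 7 endoderm genes was 884 to 1046 against 26658 to 40310, that of 5 mesoderm genes 507 to 1050 against 5895 to 7692, and that of 4 neuroectoderm genes 636 to 1208 against 8485 to 10717. Not every gene followed its sum. In H9 the mean signals of SOX2 (17471 and 17394), DNMT3B (21530 and 22023) and SALL4 (2154 and 2005) changed little. TBXT, a mesoderm gene, had means of 237 and 258 in H1 and 186 and 228 in H9. Markers of several lineages stood side by side in EB, and in such bulk samples a change in the number of cells of a type cannot be told apart from a change in RNA per cell. Of 4 blood genes with a probe set, PTPRC and CD3E lay below the median on each of the 8 arrays, ITGAM above it on 3 and HBB on all 8, and their summed signal was 247 to 381 in undifferentiated cells and 263 to 431 in EB. A sum over 4 fibroblast genes was 219 to 1223 in undifferentiated cells and 5556 to 9033 in EB. In EB most of it was LUM, with means of 891 and 8188 in H1 and 79.2 and 5407 in H9. DCN rose too, but FBLN5 had means of 83.2 and 78.8 in H1 and 58.9 and 86.3 in H9. FAP lay above the median on 1 array. The part of these genes in the changes was not tested.

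Of the 284 antisense transcripts, 144 were above the median on all 8 arrays, 111 on 3 to 7 and 29 on exactly 2. On single arrays, 212 to 229 of them exceeded a median that itself lay between 68.7 and 86.0. Just inside the limit, the 29 transcripts on 2 arrays had signals of 5.07 to 131.5, and just outside it 31 candidates on 1 array had signals of 2.02 to 112.6. The median of their per-transcript medians was 59.5 inside and 48.2 outside, so the limit separates no clear groups. The other 466 candidates exceeded the median on none of the 8 arrays. By state, 20 members were above the median in EB only, 31 in undifferentiated cells only, and 233 in both. For the first 2 of these classes the choice itself required a difference, so such members are named below with "at least" values and no p-value of their own. Their calls do enter the counts over all 284, and each main count is therefore also given for the 233.

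Antisense transcripts changed in both directions in EB, and fewer of them were called than of genes at large. Changes are given as log2 differences with their fitted standard error (SE), on the scale log2(intensity + 16), which understates the change of dim genes. A transcript was called at a Benjamini-Hochberg adjusted p under 0.05 over all 14056 tested genes (limma). Averaged over the lines, 85 members were called higher, 59 lower and 140 were not called, against 35.4% of all tested genes called higher, 33.1% lower and 68.5% in either direction. The share of members called, 50.7%, was therefore below the background of the arrays. Among the 233 members above the median in both states, 71 were called higher and 48 lower (51.1%), beside 68.2% of the 13149 tested genes of that kind, so 25 of the 144 calls belong to members for which the choice required a difference. Among the 144 members above the median on all 8 arrays, 44 were called higher and 38 lower (56.9%), while of the 11498 tested genes above the median on all 8 arrays 71.5% were called. The median change of the members was 0.05 and the median size of change 0.42, beside 0.01 and 0.36 for all tested genes.

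Changes of at least 1 on the log2 scale were called upward in 27 members and downward in 11, where the background was 10.2% and 3.61% of tested genes. Of these, 17 and 9 were among the 233 members above the median in both states, beside 1060 and 410 of the 13149 tested genes of that kind. In 80 members both EB arrays lay above both undifferentiated arrays in H1 and in H9 alike, and in 57 members below, which is 28.2% and 20.1% of the members against 30.5% and 27.8% of tested genes. The split between rises and falls depends on how the arrays are scaled. It was 85 to 59 with the values as deposited, 62 to 85 after centring each array on its median and 63 to 81 after quantile normalization. These scalings moved the median change of all tested genes from 0.01 to -0.19 and -0.06, and the sign of a small change therefore holds only relative to that shift.

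In H1 alone 64 members were called higher and 50 lower (40.1%, against 57.7% of tested genes, 29.6% higher and 28.1% lower). On the arrays labelled H9, 76 were called higher and 50 lower (44.4%, against 60.6%, with 31.6% higher and 29% lower). The 233 members above the median in both states gave 50 higher and 41 lower in H1 (39.1%) and 60 and 43 in H9 (44.2%). Of the 13149 tested genes of that kind, 57.6% were called in H1 and 60.5% in H9. When the arrays labelled H9 EB were left out and H1 EB was compared with undifferentiated H1, 108 members were called, 62 higher and 46 lower, beside 56.6% of tested genes (28.7% higher and 27.9% lower). Of these 108, 94 were among the 144 of the average contrast, and none of the 94 had the other sign.

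The antisense transcripts of the transcription factor genes GATA6, GATA3, OTX2 and ZFHX4 were among the 10 steepest rises. GATA6-AS1 lies beside GATA6, a zinc finger transcription factor of endoderm. It read 30.4 and 57.8 in undifferentiated H1, 649 and 588 in H1 EB, 49.1 and 60.9 in undifferentiated H9, and 427 and 431 on the arrays labelled H9 EB. All 4 undifferentiated values lay below their arrays' medians and all 4 EB values far above, with no overlap. The rise was at least 6.06-fold, and the fitted change was 3.05 ± 0.15. GATA6 itself rose by 4.51 ± 0.11, from 79.8 to 118 in undifferentiated cells to 1992 to 3251 in EB (limma adjusted p = 8.39e-11).

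GATA3-AS1 stands beside GATA3, a related factor of trophoblast and surface ectoderm. Its undifferentiated signals were 4.11 and 8.58 in H1 and 15.3 and 3.94 in H9, and its EB signals were 117, 107, 110 and 77.3, the last below its array's median. The rise was at least 1.34-fold. GATA3 rose by 3.84 ± 0.10, between 102 and 148 in undifferentiated cells and between 1673 and 2155 in EB.

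OTX2-AS1 belongs to OTX2, a homeobox factor of the epiblast and the forebrain. It read 0.763 and 29.3 in undifferentiated H1, 229 and 198 in H1 EB, 15.7 and 10.4 in undifferentiated H9, and 160 and 200 on the arrays labelled H9 EB. The rise was at least 2.41-fold. OTX2 was bright throughout, at 2137 and 2173 in undifferentiated H1 and 4003 and 3728 in undifferentiated H9, and rose by 1.18 ± 0.04. Its change was 1.77 in H1 and 0.59 in H9 (limma adjusted p of the difference = 6.24e-06). The size of the change of OTX2-AS1 in each line is not given, since its undifferentiated signals lay far below the array medians and the log2 change then depends on the added 16.

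ZFHX4-AS1, next to the zinc finger homeobox gene ZFHX4, went from 20.1 to 29.4 in the undifferentiated groups to 178 to 346 in EB, a rise of at least 2.91-fold, while ZFHX4 rose by 2.33 ± 0.11. LEF1-AS1, next to LEF1, a nuclear effector of WNT signalling, was named after its values were seen. It read 32.1 to 47.9 in undifferentiated cells and 102 to 133 in EB, at least 1.51-fold higher, beside a rise of LEF1 by 3.20 ± 0.08. HHIP-AS1 shares its promoter region with HHIP, which encodes a binding protein and antagonist of Hedgehog ligands. Its signals were 114 and 123 in undifferentiated H1, 307 and 380 in H1 EB, 96.2 and 80.5 in undifferentiated H9, and 416 and 440 on the arrays labelled H9 EB. It was above the median on all 8 arrays and rose by 1.75 ± 0.11 (limma adjusted p = 1.33e-07). HHIP rose by 4.47 ± 0.12.

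Other steep rises belonged to antisense transcripts of genes with varied functions. SLC9A3-AS1, beside a sodium-proton exchanger gene, was above the median on all 8 arrays. Its signals were 144 and 150 in undifferentiated H1, 854 and 883 in H1 EB, 102 and 132 in undifferentiated H9 and 681 and 758 on the arrays labelled H9 EB. The rise was 2.46 ± 0.10 (limma adjusted p = 2.31e-09), 2.44 in H1 and 2.48 in H9. The probe set of SLC9A3 itself read between 3.93 and 22.4 on the 8 arrays and was too dim to be tested.

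ZNF436-AS1, beside a zinc finger gene, read 88.0 and 93.6 in undifferentiated H1, 775 and 811 in H1 EB, 187 and 191 in undifferentiated H9 and 611 and 631 on the arrays labelled H9 EB. It rose by 2.28 ± 0.08, while ZNF436 rose by 1.59 ± 0.13. ATXN7L3-AS1 lies beside a subunit gene of a histone deubiquitinase module. It went from 35.9 to 92.3 in undifferentiated cells to 280 to 343 in EB and rose by 1.97 ± 0.21 (limma adjusted p = 8.93e-06), but ATXN7L3 was not called, at 0.14 ± 0.12. DOCK8-AS1, beside an exchange factor for the GTPase CDC42, was dim in undifferentiated cells (5.58 to 28.3) and read 60.2 to 125 in EB, at least 1.21-fold higher. DOCK8 rose by 2.81 ± 0.11. LY6S-AS1 read 21.8 to 55.6 and 129 to 207, at least 2.06-fold higher, and its sense gene had no probe set of a single symbol.

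**Figure D1:**
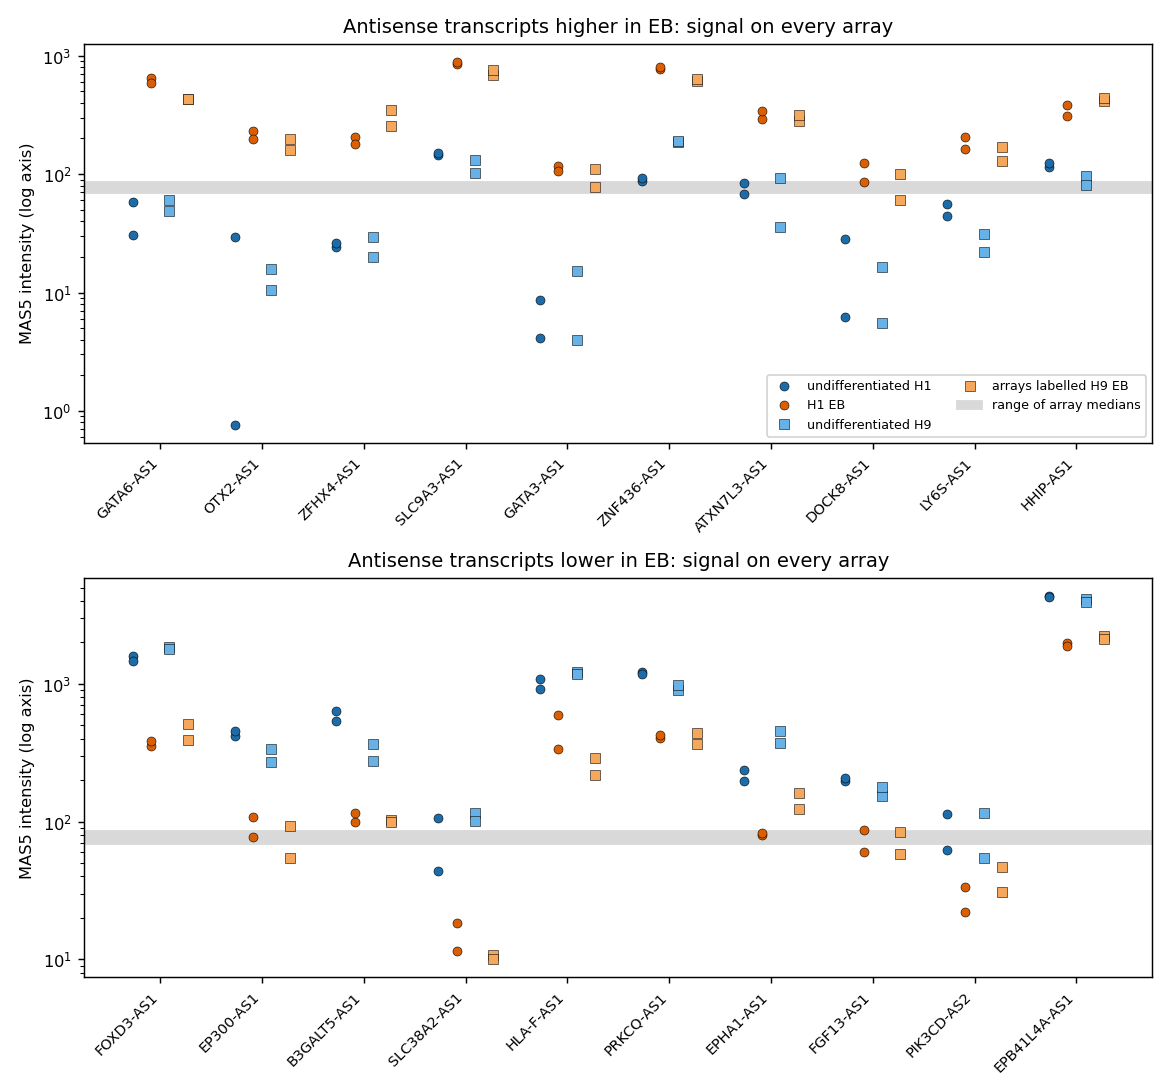
MAS5 intensity on each of the 8 arrays, on a log axis, for the 10 antisense transcripts with the steepest rises (upper panel) and the 10 with the steepest falls (lower panel) among called members whose states do not overlap in either line. Circles are H1 and squares H9, blue undifferentiated and orange EB, and the grey band is the range of array medians, 68.7 to 86.0, under which the undifferentiated signals of GATA6-AS1 and the EB signals of SLC38A2-AS1 lie.

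The 10 steepest falls included the antisense transcripts of FOXD3 and B3GALT5. All 10 were drawn from called members whose states did not overlap in either line, so neither trait is a result about them. FOXD3-AS1 neighbours FOXD3, a forkhead factor of pluripotent cells and of neural crest. It read 1603 and 1473 in undifferentiated H1, 353 and 384 in H1 EB, 1853 and 1800 in undifferentiated H9, and 389 and 514 on the arrays labelled H9 EB. The lowest undifferentiated signal, 1473, stood far above the highest EB signal, 514. The fall was -2.00 ± 0.08 (limma adjusted p = 3.89e-09), and the change was -2.01 in H1 and -1.99 in H9. FOXD3 fell by 1.23 on the log2 scale, with changes of -1.65 in H1 and -0.82 in H9.

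B3GALT5-AS1 lies beside B3GALT5, a galactosyltransferase of the globo-series glycolipids that mark pluripotent cells. Its signals were 632 and 534 in undifferentiated H1, 99.6 and 116 in H1 EB, 274 and 366 in undifferentiated H9, and 103 and 99.6 on the arrays labelled H9 EB. The EB arrays of both lines reached the same low level from different starting levels. The change was -1.89 ± 0.12 for the antisense transcript and -1.94 ± 0.12 for B3GALT5, whose signals were 793 to 1382 in undifferentiated cells and 230 to 355 in EB.

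PRKCQ-AS1, beside the gene of protein kinase C theta, had signals of 911 to 1226 in undifferentiated cells and 366 to 444 in EB and changed by -1.35 ± 0.07, with PRKCQ at -0.73 ± 0.07. EPHA1-AS1, beside an ephrin receptor gene, had 198 to 452 against 79.8 to 162 and changed by -1.35 ± 0.13, with EPHA1 at -0.96 ± 0.05. FGF13-AS1, beside a gene of an intracellular FGF homologue, had 154 to 208 against 57.9 to 87.5 and changed by -1.19 ± 0.16, with FGF13 at -1.12 ± 0.05. All 6 of these genes were called lower by limma, which the choice required of the 3 antisense transcripts but not of their sense genes.

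EP300-AS1 fell without its sense gene being called in the main fit. It read 416 and 452 in undifferentiated H1, 108 and 77.3 in H1 EB, 270 and 335 in undifferentiated H9, and 54.5 and 93.2 on the arrays labelled H9 EB, a change of -1.96 ± 0.16 (limma adjusted p = 9.83e-07). EP300, a histone acetyltransferase gene, changed in the same direction, by -0.37 ± 0.18 (limma adjusted p = 0.0989). It was called with median-centred arrays, at -0.57 (0.0223), and with the mean of all probe sets, at -0.40 (0.0171). Without H1 EB replicate 1 its change was -0.49, and without undifferentiated H9 replicate 1 it was -0.55. HLA-F-AS1, by the gene of a nonclassical class I MHC protein, read 913 to 1229 in undifferentiated cells and 217 to 599 in EB. It fell by 1.66 ± 0.16 on the log2 scale, while HLA-F was called slightly higher, at 0.31 ± 0.06, a call that was lost at -0.08 when all probe sets of the gene were averaged and at 0.11 with median-centred arrays.

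A pair of the steepest falls rest on dim signals. SLC38A2-AS1, beside an amino acid transporter gene, read 43.5 and 106 in undifferentiated H1 and 116 and 100.4 in undifferentiated H9, and between 10.0 and 18.5 in EB. The fall is bounded only as at least 1.02-fold. SLC38A2 read 15354 to 17701 on the 8 arrays and changed by -0.13 ± 0.03, and by 0.07 after quantile normalization. PIK3CD-AS2, read by a probe set of a type that can cross-hybridise, had 54.7 to 115 in undifferentiated cells and 22.0 to 46.9 in EB, and no fold is given, since the array medians exceed most of these values. PIK3CD, the catalytic subunit of a phosphoinositide 3-kinase, changed by -1.80 ± 0.15.

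EPB41L4A-AS1, beside a gene of the band 4.1 family, fell while its sense gene rose. Its signals were 4321 and 4246 in undifferentiated H1, 1976 and 1884 in H1 EB, 4148 and 3926 in undifferentiated H9, and 2237 and 2114 on the arrays labelled H9 EB. The antisense transcript changed by -1.02 ± 0.04 (limma adjusted p = 3.12e-09), while EPB41L4A rose by 1.06 ± 0.08. The other probe set of EPB41L4A-AS1 read 91.3 to 210 in undifferentiated cells and 218 to 386 in EB and changed by 1.09. The mean over both probe sets changed by 0.04 and was not called, so the direction given is that of the brightest probe set only. Of 57 members with at least 2 tested probe sets, no called probe sets opposed each other in 51, and in 6 they did.

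Antisense transcripts and their sense genes moved the same way more often than opposite ways. Of the 236 pairs with both tested, 66 were called in the same direction, 40 with both higher and 26 with both lower. In 26 pairs the directions were opposite, 15 with the antisense transcript higher and the sense gene lower and 11 the other way round. In 33 pairs the antisense transcript alone was called, in 84 the sense gene alone, and in 27 neither. The sense genes were called more often than the antisense transcripts, 94 higher and 82 lower (74.6%, against the 68.5% of tested genes), with a median of 0.03. Same-direction pairs were 28.0% and opposite pairs 11.02% of those tested. Over the 194 tested pairs whose antisense transcript was above the median in both states, 49 ran the same way and 25 opposite, that is 25.3% and 12.9%. The other 42 tested pairs, in which the choice required a difference, held 17 same-direction pairs and 1 opposite pair.

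As a reference, 5374 pairs of other tested genes that are next to each other in RefSeq, with no member among them, were called in the same direction in 25.7% and in opposite directions in 21.7%. Of the pairs with both genes called, 71.7% of 92 antisense pairs and 54.3% of 2547 adjacent pairs ran the same way. Opposite changes were thus the scarcer class among antisense pairs, and the difference itself was not tested. With median-centred arrays 78 pairs ran the same way and 27 opposite, and with quantile normalization 66 and 25. Without the arrays labelled H9 EB the counts were 46 and 16. Over the 236 pairs the changes of antisense transcript and sense gene correlated at Pearson's r = 0.49 and Spearman's rho = 0.39, and over the 108 pairs with both above the median on all 8 arrays at 0.30 and 0.26. These correlations are across gene pairs that share the same 8 arrays and their scaling, and genes are not replicates.

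**Figure D2:**
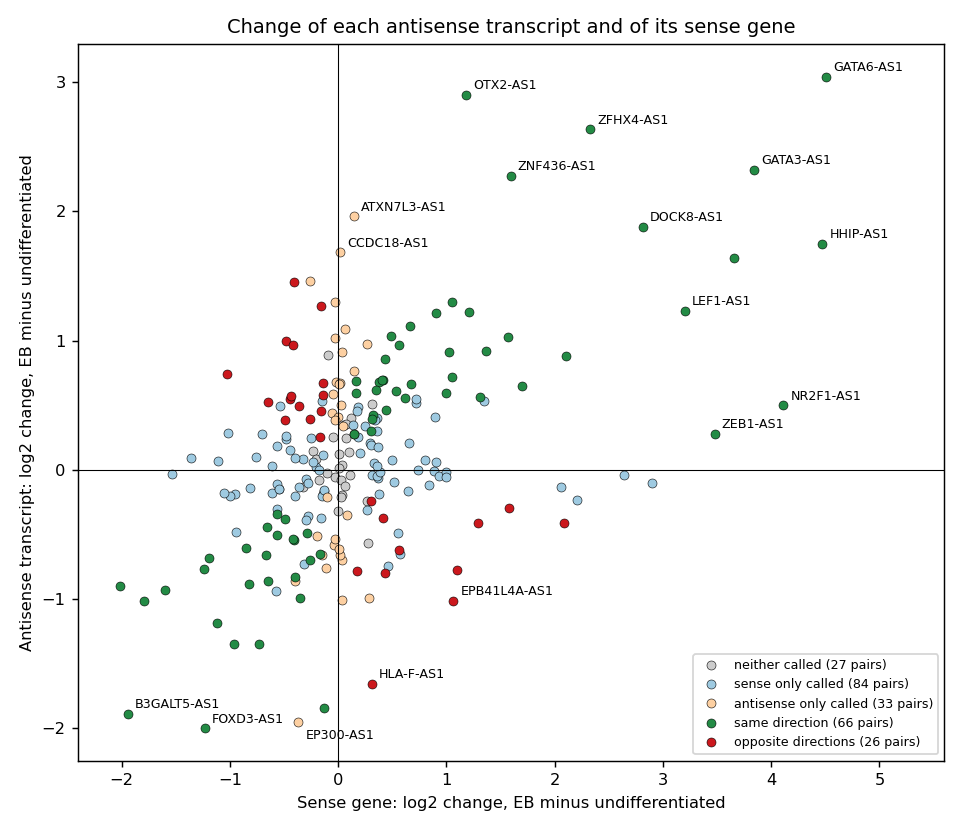
Log2 change (EB minus undifferentiated, averaged over the lines) of each antisense transcript against that of its sense gene, for 236 tested pairs. Colours give which of both were called; the 66 pairs called in the same direction (green) include the pairs farthest from 0, such as GATA6-AS1 at 3.05 and 4.51, and the 26 opposite pairs (red) lie closer in.

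The share of pairs called in the same direction varied with the position of both genes in RefSeq. In 36 tested pairs with starts that face away from each other within 1000 bases, 13 were called in the same direction and 3 in opposite directions, that is 36.1% and 8.33%. Other adjacent genes placed in this way gave 27% and 18% of 611 pairs. In 60 pairs that overlap at their starts, 30% ran the same way and 10% opposite, beside 25.6% and 17.95% of 117 other pairs. In 27 pairs with 1 start inside the other gene the shares were 25.9% and 18.5%, beside 26.9% and 15.1% of 119.

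Pairs that overlap at their ends gave the other order. Of 31 tested pairs, 5 (16.1%) were called in the same direction and 7 (22.6%) in opposite directions, where 404 other pairs overlapping at their ends gave 25.5% and 23.5%. The numbers are small, and whether the classes of position differ was not tested. All classes of position were counted with pairs whose antisense transcript was above the median in 1 state only left in. Of 9 pairs on opposite strands that do not overlap, 1 ran the same way and 2 opposite, and 1 further pair lay on a single strand. In 72 tested pairs that were not placed, since 1 or both genes had no start in the RefSeq table used here or lay on different chromosomes, 21 ran the same way and 3 opposite.

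**Figure D3:**
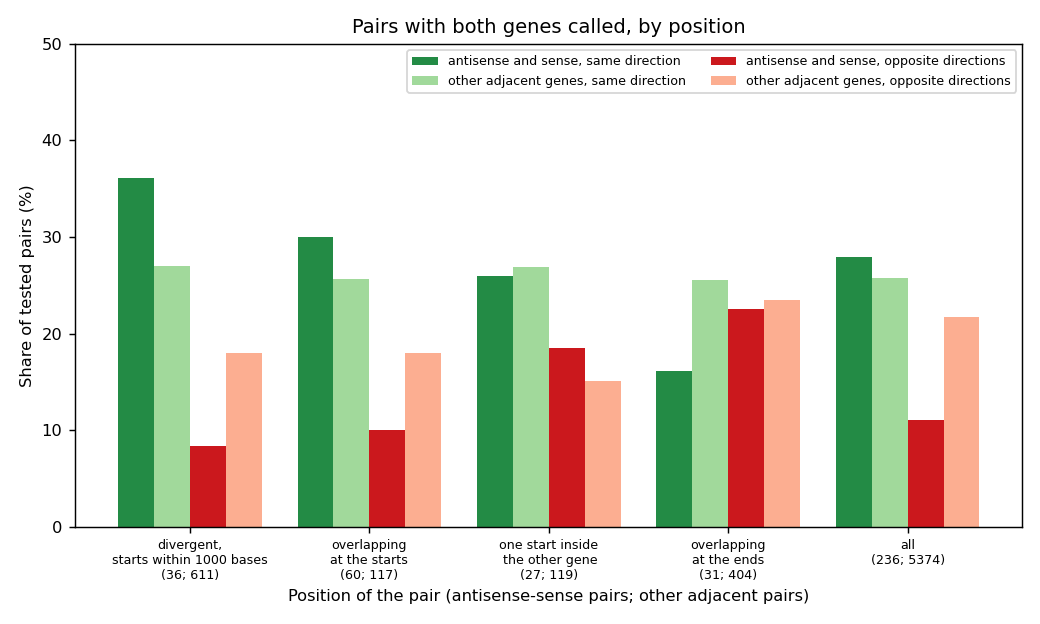
Share of tested pairs (percent) with both genes called in the same direction (green) or in opposite directions (red), by the position of the genes, for antisense-sense pairs (dark) and other adjacent gene pairs (pale). The numbers under each class are antisense-sense pairs and other pairs; the dark green bar falls from 36.1% in divergent pairs to 16.1% in pairs overlapping at the ends.

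For 4 of the named pairs both genes were called in the same direction by at least 1 and their starts face away from each other within 1000 bases. Their promoter windows, chosen after the values were seen, show how little DNA lies between the starts. Each window holds 250 bases before and 50 after a RefSeq start in GRCh38.p14, written 5′ to 3′ on the strand of the gene named. For FOXD3 (chr1:63322317-63322616, plus strand), B3GALT5 (chr21:39612690-39612989, plus strand) and HHIP (chr4:144645906-144646205, plus strand) the start of the antisense transcript lies within the same window, 109, 118 and 137 bases away. Capitals mark the 108, 117 and 136 bases between both starts. GATA6 (chr18:22169339-22169638, plus strand) and GATA6-AS1 (chr18:22168919-22169218, minus strand) start 621 bases apart, so each has a window of its own without capitals.
FOXD3 and FOXD3-AS1, both lower in EB: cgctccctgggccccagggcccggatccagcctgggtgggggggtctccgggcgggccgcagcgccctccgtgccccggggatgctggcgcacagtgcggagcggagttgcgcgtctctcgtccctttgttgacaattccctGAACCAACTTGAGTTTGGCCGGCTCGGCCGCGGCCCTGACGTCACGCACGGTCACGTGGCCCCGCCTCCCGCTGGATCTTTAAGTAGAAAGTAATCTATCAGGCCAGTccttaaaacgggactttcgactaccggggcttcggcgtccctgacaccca
B3GALT5 and B3GALT5-AS1, both lower in EB: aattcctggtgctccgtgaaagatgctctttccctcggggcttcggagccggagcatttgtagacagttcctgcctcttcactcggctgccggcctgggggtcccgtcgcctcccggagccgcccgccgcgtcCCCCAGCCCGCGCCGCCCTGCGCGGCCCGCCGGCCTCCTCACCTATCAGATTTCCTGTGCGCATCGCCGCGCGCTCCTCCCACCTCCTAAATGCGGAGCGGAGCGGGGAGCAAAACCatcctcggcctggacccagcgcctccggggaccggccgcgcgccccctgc
HHIP and HHIP-AS1, both higher in EB: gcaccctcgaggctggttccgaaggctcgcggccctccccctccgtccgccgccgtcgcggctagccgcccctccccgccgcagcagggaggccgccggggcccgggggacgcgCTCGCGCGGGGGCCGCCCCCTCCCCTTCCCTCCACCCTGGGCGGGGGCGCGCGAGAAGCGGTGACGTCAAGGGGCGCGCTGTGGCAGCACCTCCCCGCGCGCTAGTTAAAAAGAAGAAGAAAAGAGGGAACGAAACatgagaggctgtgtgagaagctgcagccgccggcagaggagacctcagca
GATA6, higher in EB: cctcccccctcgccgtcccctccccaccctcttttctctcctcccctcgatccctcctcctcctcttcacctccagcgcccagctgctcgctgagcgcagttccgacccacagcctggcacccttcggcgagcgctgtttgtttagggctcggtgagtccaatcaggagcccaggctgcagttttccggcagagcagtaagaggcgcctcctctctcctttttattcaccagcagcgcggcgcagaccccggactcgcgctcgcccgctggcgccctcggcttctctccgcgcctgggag
GATA6-AS1, higher in EB: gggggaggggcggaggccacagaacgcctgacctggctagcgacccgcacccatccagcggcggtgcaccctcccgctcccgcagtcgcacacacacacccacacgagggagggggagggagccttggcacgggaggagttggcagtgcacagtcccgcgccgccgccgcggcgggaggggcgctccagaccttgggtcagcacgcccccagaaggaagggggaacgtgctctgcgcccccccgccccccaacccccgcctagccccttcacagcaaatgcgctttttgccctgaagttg

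These windows are rich in CG dinucleotides. The FOXD3 window holds 29, that of B3GALT5 35, that of HHIP 36, and those of GATA6 and GATA6-AS1 25 each, where the median of 27305 RefSeq windows is 14. At least 25 CG dinucleotides occur in 31.8% of those windows, at least 29 in 24.0%, at least 35 in 14.0% and at least 36 in 12.5%. Neither TATAAA, the core of a TATA box, nor AGATAA, a form of the GATA motif, occurs on either strand of the 5 windows. Of all windows, 11.9% hold TATAAA and 10.5% AGATAA on either strand. These are matches of letters in a window and describe no binding.

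In 13 divergent pairs with both genes called in the same direction, sizes of change could differ widely. HHIP-AS1 rose by 1.75 and HHIP by 4.47, whereas GLYCTK-AS1, beside a glycerate kinase gene and named after its values were seen, rose by 1.22 ± 0.11 and GLYCTK by 1.21 ± 0.12. ID2-AS1, beside ID2, an inhibitor of basic helix-loop-helix factors, rose by 0.92 ± 0.20 and ID2 by 1.36 ± 0.04, with signals of 38.5 to 103 against 103 to 176 for ID2-AS1, so that the states met at the boundary. The 3 divergent pairs with opposite calls were ENO1-AS1 at 0.40 beside the glycolytic enzyme gene ENO1 at -0.26, INTS6-AS1 at 0.96 beside INTS6 at -0.41, and TPT1-AS1 at 0.67 beside TPT1 at -0.14, and these too were named after their values were seen.

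Opposite changes were of modest size. Among the 26 opposite pairs, EPB41L4A-AS1 and EPB41L4A was the single pair in which both changes reached 1. PAPLN-AS1, beside the matrix gene PAPLN, read 134 to 199 in undifferentiated cells and 64.8 to 99.1 in EB and changed by -0.78 ± 0.16 (limma adjusted p = 0.00103), while PAPLN rose by 1.10 ± 0.08. LHX4-AS1, beside a LIM homeobox gene, read 59.7 to 82.0 and then 117 to 149 and rose by 0.74 ± 0.15 (0.00117). LHX4 changed by -1.02 ± 0.16, from 92.2 to 253 down to 46.7 to 90.4. In all these genes the undifferentiated and EB signals of the antisense transcript did not overlap.

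ATP8B1-AS1, beside a phospholipid flippase gene, had signals of 240 to 258 in undifferentiated cells and 134 to 189 in EB and a change of -0.63 ± 0.11, with ATP8B1 at 0.56 ± 0.14. PSMA3-AS1, beside a gene of a proteasome subunit, had 569 to 713 and 878 to 1088 and rose by 0.57 ± 0.07, with PSMA3 at -0.43 ± 0.03. OTUD6B-AS1, beside a deubiquitinase gene, had 481 to 604 and 672 to 823 and rose by 0.52 ± 0.08, with OTUD6B at -0.65 ± 0.04. With the mean of all probe sets the calls of PSMA3 (-0.11) and OTUD6B-AS1 (0.13) were lost, while PSMA3-AS1 stayed called, at 1.13. OTUD6B-AS1 has probe sets called in both directions.

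JMJD1C-AS1, beside a gene of the JmjC demethylase family, rose by 0.55 ± 0.16, from 55.5 to 86.8 up to 102 to 141, with JMJD1C at -0.45 ± 0.04. It no longer passed when the H9 EB arrays were left out, at 0.50 (limma adjusted p = 0.105), without H1 EB replicate 1, at 0.49 (0.05003), and with median-centred arrays (0.35, 0.0718) and quantile normalization (0.35, 0.0787). ALOX12-AS1, beside a lipoxygenase gene, rose by 1.00 ± 0.20 with ALOX12 at -0.49 ± 0.17, and without the arrays labelled H9 EB it changed by 0.16 and was not called. The call of ALOX12 was also lost without those arrays, at -0.38, and without any of 4 single arrays, at -0.47 to -0.40.

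Large changes of the sense gene were not always followed by the antisense transcript. Of 30 pairs with a sense gene called higher by at least 1, the antisense transcript was called higher in 20, lower in 5 and not called in 5. Of 15 with a sense gene called lower by at least 1, it was lower in 8, higher in 1 and not called in 6. Seen from the other side, 23 tested pairs had an antisense transcript called higher by at least 1, and the sense gene was higher in 15, lower in 2 and not called in 6. The choice of transcripts by signal bears on these counts, since dim ones were left out.

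NR2F1-AS1 and ZEB1-AS1, named after their values were seen, rose little beside steep rises of their sense genes. NR2F1, an orphan nuclear receptor gene of neural and mesodermal progenitors, rose by 4.11 ± 0.06 on average. It went from 467 and 454 to 2531 and 2387 in H1, a change of 2.38 ± 0.09, and from 67.3 and 60.8, below the array medians, to 4356 and 4807 in H9, where the change was 5.84 ± 0.09 and the difference between the lines was called (limma adjusted p = 8.05e-08). NR2F1-AS1 read 292 and 298 in undifferentiated H1, 264 and 348 in H1 EB, 191 and 196 in undifferentiated H9, and 407 and 377 on the arrays labelled H9 EB. The states overlapped in H1 and not in H9, with changes of 0.04 ± 0.15 and 0.96 ± 0.15 and a difference called at a limma adjusted p of 0.00976, in the same order as that of NR2F1. ZEB1, a transcription factor of epithelial to mesenchymal transition, rose by 3.48 ± 0.10, and ZEB1-AS1 by 0.28 ± 0.11 (0.0436), with 0.73 in H1 and -0.18 in H9. The average call of ZEB1-AS1 was weak: it was lost with median-centred arrays (0.08, 0.545), quantile normalization (0.08, 0.541), no filter (0.0580) and the replicate number as a block (0.0553), and without any of 5 single arrays, at 0.22 to 0.29.

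The 5 members above the median on all 8 arrays with the smallest changes were SYNPR-AS1, NINJ2-AS1, MYRF-AS1, TRAM2-AS1 and NUTM2B-AS1. Their changes lay between -0.02 and 0.01, with SE from 0.06 to 0.15. SYNPR-AS1 read 125 to 180 in undifferentiated cells and 126 to 187 in EB, while SYNPR, a synaptic vesicle protein gene, rose by 0.74 ± 0.12. TRAM2-AS1 read 339 to 406 and 313 to 447, and TRAM2 rose by 0.38 ± 0.06, or by an uncalled 0.14 with the mean of its probe sets. A near-zero average hid different changes in the lines for 3 of the 5. NINJ2-AS1 rose by 0.36 in H1, from 314 and 345 to 457 and 397, and changed by -0.34 on the arrays labelled H9, from 471 and 534 to 414 and 374, with both changes called. For MYRF-AS1 the values were 0.48 and -0.51 and for NUTM2B-AS1 0.20 and -0.25, and the difference between the lines was called in each of the 3.

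The EB change differed between the lines in 26 members, 15 with a higher and 11 with a lower change in H9 (9.16%, against 22.7% of tested genes, 11.5% higher and 11.2% lower). All 26 were above the median in both states. These differences use the arrays labelled H9 EB and have no value without them. They also moved with single arrays: leaving out H1 EB replicate 1 or 2 gave 11 and 14 members, and leaving out replicate 1 or 2 of the arrays labelled H9 EB gave 12 and 14.

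ZNF790-AS1, beside a zinc finger gene with no probe set of a single symbol, had the largest such difference among the members. It read 178 and 174 in undifferentiated H1, 91.8 and 147 in H1 EB, 16.7 and 26.7 in undifferentiated H9, and 72.5 and 86.4 on the arrays labelled H9 EB. The change was -0.53 ± 0.28 in H1, where it was not called, and 1.35 ± 0.28 in H9, where it was at least 1.11-fold because undifferentiated H9 was dim. ALOX12-AS1 changed by 0.16 ± 0.29 and 1.83 ± 0.29, from 111 and 65.7 to 105 and 91.2 in H1 and from 17.9 and 16.5 to 98.2 and 106 in H9. Its rise in H9 is bounded only as at least 1.38-fold. Both transcripts were dim in undifferentiated H9, so the sizes of their changes there, and their rank, depend on the added 16. On the arrays labelled H9 EB the signals of ALOX12-AS1 were near those of H1 EB, while those of ZNF790-AS1 stayed below all 4 H1 signals. GOLGA4-AS1 (0.23 and 1.48), TTN-AS1 (0.32 and 1.51) and SDCBP2-AS1 (-0.01 and 1.16) showed the same order. Of these 3 GOLGA4-AS1 and TTN-AS1 were dim in undifferentiated H9, and rose there by at least 1.77-fold and 2.30-fold. In each of the 5 transcripts H9 alone was called.

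TTN, the titin gene of muscle, differed in the same way, by 0.32 in H1 and 1.73 in H9. With the mean of all probe sets neither gene of this pair kept its call in the average contrast. TTN then changed by 0.32 (limma adjusted p = 0.0583) and TTN-AS1 by 0.23 (0.333). Without the arrays labelled H9 EB none of ALOX12-AS1, GOLGA4-AS1, TTN-AS1 and SDCBP2-AS1 kept a call, with changes of 0.16, 0.23, 0.32 and -0.01.

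In the other direction, ZNF436-AS1 rose more in H1, by 2.92 ± 0.12 against 1.64 ± 0.12, a difference of -1.29 ± 0.17 (limma adjusted p = 0.000524). MAGI2-AS3, beside the scaffold gene MAGI2, which had no probe set of a single symbol, rose by 2.06 ± 0.13 in H1, at least 3.70-fold from a dim start, and by 0.91 ± 0.13 in H9. Its signals were 59.5 and 68.1 in undifferentiated H1, 306 and 328 in H1 EB, 314 and 316 in undifferentiated H9, and 636 and 574 on the arrays labelled H9 EB. Undifferentiated H9 was thus already at the level of H1 EB. HLA-F-AS1 fell more in H9, with changes of -2.20 in H9 and -1.12 in H1. MYRF-AS1 and ZEB1-AS1 differed by -0.99 ± 0.30 and -0.91 ± 0.22.

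**Figure D4:**
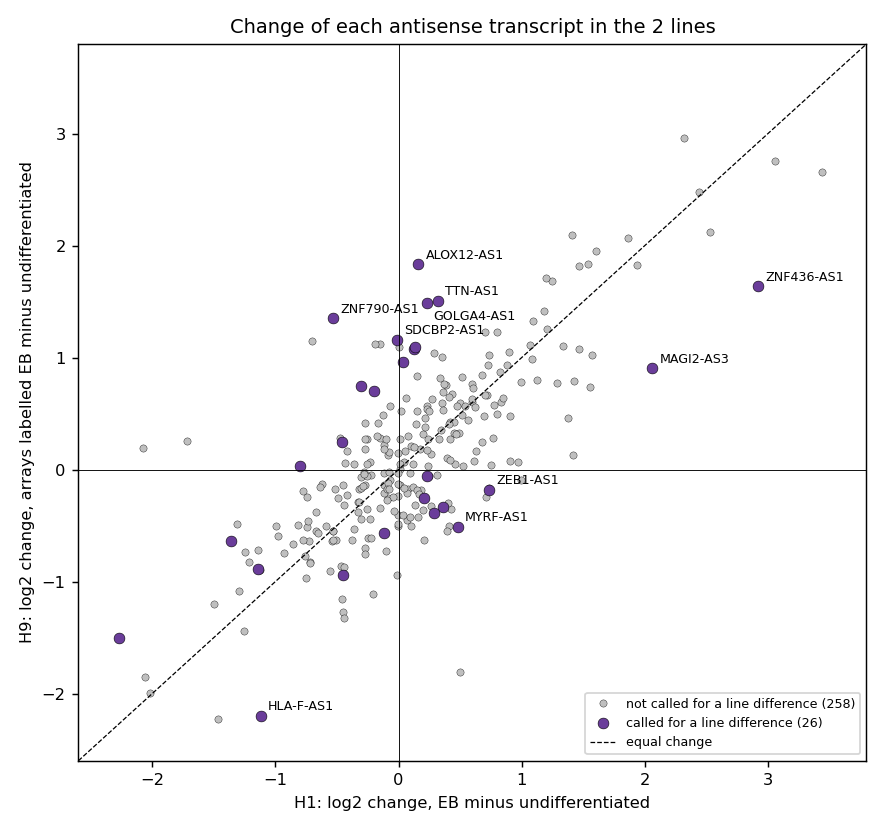
Log2 change (EB minus undifferentiated) in H9, using the arrays labelled H9 EB, against that in H1, for each of the 284 antisense transcripts. Purple points are the 26 members called for a difference between the lines, and the dashed line marks equal change; ZNF790-AS1 and ALOX12-AS1 lie above it and ZNF436-AS1 and MAGI2-AS3 below.

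Without differentiation the lines already differed in 38 antisense transcripts, 16 higher and 22 lower in H9 (13.4%, against 26.2% of tested genes, 13.7% higher and 12.5% lower). All 38 were above the median in both states. The difference is between undifferentiated arrays alone, but its spread was estimated over all 8 arrays, and the count was 36 without the arrays labelled H9 EB and 33 without H1 EB replicate 1 or 2. ZNF790-AS1 was lower in undifferentiated H9 by at least 2.24-fold and ALOX12-AS1 by at least 1.19-fold, both being dim there. RBM26-AS1, beside an RNA-binding protein gene, read 284 and 296 in undifferentiated H1 and 87.8 and 78.6 in undifferentiated H9, a difference of -1.63 ± 0.17 (limma adjusted p = 6.86e-05). PNISR-AS1, beside a splicing-related gene, read 457 and 497 against 178 and 200, a difference of -1.27 ± 0.12. KIF25-AS1, beside a kinesin gene, read 399 and 359 against 189 and 156, a difference of -1.07 ± 0.17. The arrays of both lines were clearly apart in each of these.

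Among transcripts higher in undifferentiated H9, MAGI2-AS3 was at least 3.68-fold higher in undifferentiated H9 than in undifferentiated H1. ZNF436-AS1 was higher by 0.94 ± 0.12, EPHA1-AS1 by 0.87 ± 0.18 and DICER1-AS1, beside the gene of the nuclease that makes microRNAs, by 0.70 ± 0.16, the last with 251 and 213 against 151 and 123. EIF1B-AS1 read 108 and 105 against 62.2 and 52.2 and was at least 1.36-fold higher. In 8 of these pairs the sense gene had a tested probe set. The antisense transcripts were chosen by the size of this difference and the sense genes were not. A smaller difference of the sense genes is therefore no result about the pairs. RBM26 was higher by 0.25 ± 0.06, opposite to RBM26-AS1, and PNISR differed by -0.22 ± 0.06, with both called by limma. EIF1B and DICER1 were called higher by 0.28 ± 0.05 and 0.49 ± 0.11, while EPHA1 at -0.21, KIF25 at -0.15, ZNF436 at 0.18 and ALOX12 at 0.11 were not called.

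**Figure D5:**
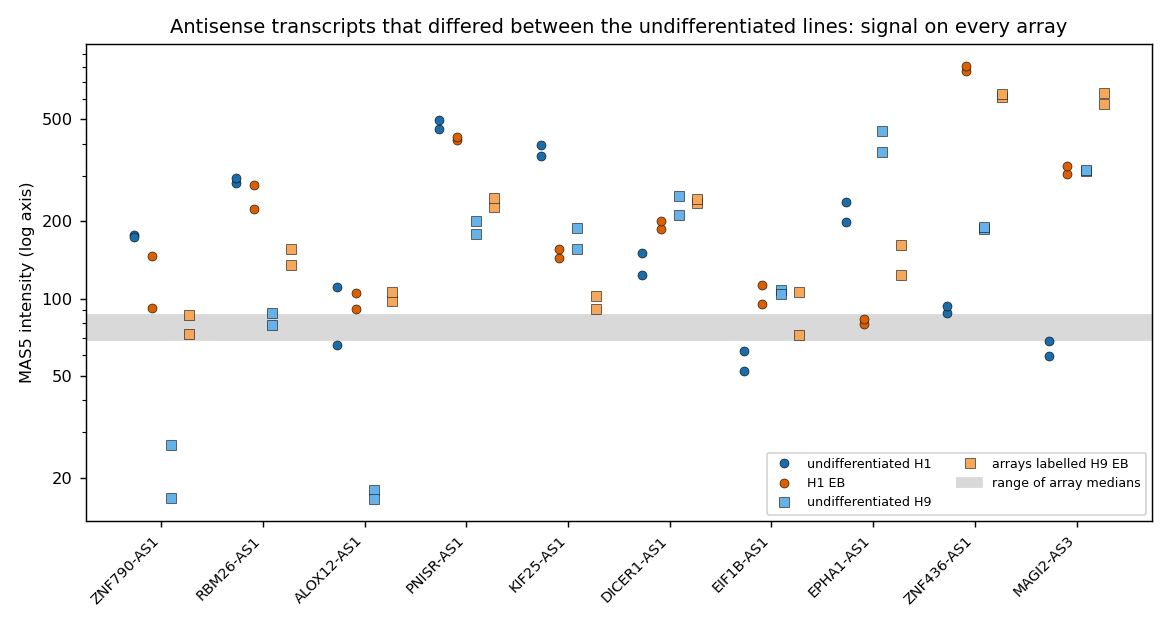
MAS5 intensity on each of the 8 arrays, on a log axis, for the 5 antisense transcripts lowest and the 5 highest in undifferentiated H9 relative to undifferentiated H1. Circles are H1 and squares H9, blue undifferentiated and orange EB, and the grey band is the range of array medians; the blue squares of ZNF790-AS1 and ALOX12-AS1 lie under the band, at 16.5 to 26.7.

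Other transcripts named as noncoding were called about as often as the antisense transcripts. Of 164 long intergenic transcripts named LINC and a number, 45 rose and 36 fell (49.4%), with a median change of 0.01. Of 95 divergent transcripts named -DT, 23 rose and 21 fell (46.3%), with a median of 0.02. Of 9 intronic or overlapping transcripts named -IT or -OT, 2 rose and 2 fell, and of 6 small nucleolar RNA host genes (SNHG) 3 rose and 2 fell. These shares stand beside the 50.7% of antisense transcripts and the 68.5% of all tested genes, and the differences were not tested.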

How the data were processed

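The authors' deposited values are linear intensities of probe sets. They come from MAS5, as the submitters' processing notes name it, with no version stated there. MAS5 takes mismatch signal off each probe, so dim values are noisy. The mean of each array without the outer 2% at each end was 500.1, so all had been scaled to 1 target. Of 54675 probe sets, 41091 had 1 symbol in the platform annotation and 1801 several; 12 antisense symbols occur only among the latter and were not used. A gene was read by its brightest probe set (highest mean log2 value) and tested when its signal exceeded the array median on at least 2 arrays. Values were transformed as log2(intensity + 16), and 4 group means were fitted in limma 3.58.1 (R 4.3.3; eBayes with trend and robust settings; Benjamini-Hochberg over 14056 genes), a procedure tested on simulated data. "At least" values divide the bright group by the dim signal or the array median, whichever is higher, on the same scale.

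Replicate numbers did not pair samples: deviations of same-numbered arrays correlated at -0.05 to 0.05. Arrays of 1 group correlated at 0.991 to 0.992 across genes, and those of different states at 0.901 to 0.915. The ratio of 3' to 5' GAPDH signal was 0.848 to 0.965. The number of arrays limits the precision. Probe sequences were not used here, so which strand a probe set reads was not checked.

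The transcripts, gene lists and tests were chosen with earlier results of these data known. The text names the 10 largest called changes per direction whose states do not overlap in either line, the 5 largest per direction for each line contrast, the 8 opposite pairs with the largest smaller change, and the 5 steadiest members above the median on all 8 arrays; others are named as chosen after their values were seen. Starts and windows are RefSeq's for GRCh38.p14, whose table held 219 of the 284 symbols. Alternatives were other scalings, added values of 1 and 64, other filters, the mean of all probe sets, eBayes without those settings, a minimum change, a replicate block, and leaving out arrays.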

Additional observations from a re-analysis of the deposited data

Results flagged for a closer look

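The EB change differed between H1 and H9 in 26 of the 284 antisense transcripts, with the difference itself called by limma at an adjusted p under 0.05. The 16 of these that the text describes are given here. Each value is the H9 change minus the H1 change on the log2 scale and rests on the arrays labelled H9 EB. On these arrays CRYZ and TYW3 read higher than in undifferentiated H9, and the part of these arrays in the differences was not tested. The change was higher in H9 by 1.88 for ZNF790-AS1, 1.67 for ALOX12-AS1, 1.26 for GOLGA4-AS1, 1.19 for TTN-AS1, 1.17 for SDCBP2-AS1, 0.92 for NR2F1-AS1, 0.90 for RBM26-AS1, 0.77 for B3GALT5-AS1 and 0.26 for EPB41L4A-AS1. It was lower in H9 for ZNF436-AS1 (-1.29), MAGI2-AS3 (-1.16), HLA-F-AS1 (-1.08), MYRF-AS1 (-0.99), ZEB1-AS1 (-0.91), NINJ2-AS1 (-0.69) and NUTM2B-AS1 (-0.45). ZNF790-AS1, ALOX12-AS1, GOLGA4-AS1 and TTN-AS1 were dim in undifferentiated H9 and MAGI2-AS3 in undifferentiated H1. The sizes of these differences therefore depend on the added 16. B3GALT5-AS1, EPB41L4A-AS1 and HLA-F-AS1 fell in both lines and ZNF436-AS1 and MAGI2-AS3 rose in both, so for these the lines differed in size. Among sense genes with a change given for each line, the difference was 3.47 for NR2F1, 1.41 for TTN, 0.82 for FOXD3 and -1.18 for OTX2.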

How the results depend on the processing

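A minimum log2 change of 1 left 38 of the 284 members called in the average contrast, 46 in H1 and 49 in H9. It left 9 for the line difference and 7 between undifferentiated lines. Of all 14056 tested genes it left 1437 higher and 508 lower on average, 1418 and 586 in H1, and 1575 and 605 in H9. For the line difference these were 305 and 247, and between undifferentiated lines 135 and 269. Also left were 45 sense genes, 16 pairs in the same direction and 1 in opposite directions. With the mean of all probe sets the line difference held 16 members, and without both arrays labelled H9 EB 16 opposite pairs were counted. Without the filter 418 sense genes were called. That count is drawn from the sense genes of all 781 candidates, not only of the 284 members. It is therefore no rise over the count of the main fit, which covered 236 sense genes. Leaving out each array in turn gave 130 to 141 members on average, 82 to 119 in H1, 97 to 130 in H9, 11 to 27 for the line difference, 26 to 35 between undifferentiated lines, 162 to 168 sense genes, 60 to 66 same-direction pairs and 16 to 22 opposite pairs; opposite pairs numbered 16 without H1 EB replicate 1 and 17 without undifferentiated H1 replicate 1. The sign turned for EPB41L4A-AS1 (0.036) and HLA-F (-0.078) with the mean of all probe sets, DICER1 (-0.012) and RBM26 (-0.13) with median-centred arrays, SLC38A2 (0.070) with quantile normalization, and SDCBP2-AS1 (-0.012) without the arrays labelled H9 EB. The causes were not tested. With the replicate number as a block, although the numbers do not pair the samples, the counts were 142, 108, 124, 25 and 35 members, 173 sense genes, and 67 and 24 pairs. Signals near the array median limit what can be said of dim transcripts.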

Other observations

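Several sense genes rose in EB without a matching change of their antisense transcript. These pairs were chosen after their values were seen, as those with a sense gene called higher by at least 2 on the log2 scale. Among 15 such pairs, the antisense transcript was called higher in 10, lower in 1 and not called in 4. PITX1, a homeobox factor of limb and pituitary, was dim in undifferentiated cells (1.80 to 4.46) and read 88.3 to 181 in EB, at least 1.61-fold higher, beside PITX1-AS1 at -0.10 ± 0.16, which read 88.8 to 127 in undifferentiated cells and 86.7 to 114 in EB. GLIS3, a zinc finger transcription factor gene, changed by 2.21 beside GLIS3-AS1 at -0.24. ITGB8, an integrin subunit gene, changed by 2.06 beside ITGB8-AS1 at -0.14. PGM5 changed by 2.64 beside PGM5-AS1 at -0.04 by its brightest probe set, though its other tested probe set was called higher, at 1.33. ARRDC3, an arrestin family gene, rose by 2.09 while ARRDC3-AS1 was called lower at -0.41.

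Antisense transcripts that changed alone also occurred. CCDC18-AS1, chosen after its values were seen, read 210 to 320 in undifferentiated cells and 707 to 978 in EB and rose by 1.68 ± 0.12, whereas CCDC18 read 163 to 226 and 188 to 220 and changed by 0.01 ± 0.11 (limma adjusted p = 0.920). GABPB1-AS1, beside a subunit gene of the GA-binding protein, read 411 to 932 in undifferentiated cells and 1105 to 1571 in EB and rose by 1.02 ± 0.12, with GABPB1 at -0.03 ± 0.08. In both transcripts the states did not overlap.

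In 6 members the probe sets were called in both directions: CCDC144NL-AS1, EPB41L4A-AS1, MCM3AP-AS1, OTUD6B-AS1, TRAF3IP2-AS1 and TTC28-AS1. For CCDC144NL-AS1 the brightest probe set went from 2520 to 3136 in undifferentiated cells up to 3559 to 4098 in EB. Its 3 other tested probe sets were all called lower, the brightest of them going from 980 to 1074 down to 431 to 666. For TTC28-AS1 the brightest probe set went from 728 to 896 down to 541 to 674, and another from 46.3 to 98.6 up to 139 to 177. The cause was not tested.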
